A study of Mus musculus with 9 samples.

Results

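The comparison described here is loss of Atg7 in hepatocytes against the floxed control, in whole mouse liver. Its members are 6 of the 9 liver mRNA libraries in the series, chosen by genotype alone: 3 labelled Atg7flox/flox, called cont., and 3 labelled Atg7flox/flox;Alb-Cre, called Atg7-KO. Both groups are homozygous for the floxed Atg7 allele and neither was given a drug. They differ in the Alb-Cre transgene, in which the albumin promoter drives Cre recombinase, so that Atg7 is deleted in hepatocytes while other liver cells keep it. The study's text gives the mice as 3 months old and on a C57BL/6 background. The remaining 3 libraries, Atg7-KO livers that also carry the p62 allele S351A, are not compared here. They entered the filter on low counts, the scaling and the estimate of the spread. Of 24411 genes in the count table, 11199 had enough counts to be tested.

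Autophagy encloses cytoplasm and organelles in a membrane sac and delivers them to the lysosome. ATG7 is the E1-like enzyme that activates ubiquitin-like proteins so that they can be attached to their targets, a step that the sac needs in order to form. The liver relies on this route to recycle amino acids, lipid droplets, mitochondria and endoplasmic reticulum, and hepatocytes that lack it accumulate p62/SQSTM1 bodies, in which KEAP1 is held away from its substrate NRF2, the transcription factor of the antioxidant response.

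The cont. libraries held 1875325 to 15426575 counts and the Atg7-KO libraries 1945483 to 3675058, so that 3 counts in 1 library correspond to 0.269 to 1.91 CPM (counts scaled to a common library size, corrected for library composition) in cont. and 0.696 to 1.37 CPM in Atg7-KO. Across genes the log-scale correlation between replicates was 0.928 to 0.934 in cont. and 0.964 to 0.974 in Atg7-KO, so the control libraries differed more from each other. By Xist and Y-linked counts, 2 cont. libraries came from males (1 and 3) and 1 from a female, whereas 1 Atg7-KO library came from a male (1) and 2 from females. Sex is therefore unevenly spread over the groups, and values by sex are given where genes are known to depend on it. Labels say biological replicates without naming animals, so the p-values measure the spread between these samples. In bulk liver, fewer cells of a type and less RNA per cell cannot be told apart, and this holds for every level below.

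Atg7 (chromosome 6, 114643097 to 114860614 in mm10) stood at 45.1, 57.8 and 42.4 CPM in cont. and at 30.2, 28 and 28.4 CPM in Atg7-KO. All 3 Atg7-KO libraries lay below all 3 cont. libraries, and Atg7 was called lower (log2 fold change -0.74, SE 0.19, adjusted p = 0.00758, edgeR quasi-likelihood test). The call is lost when libraries are scaled by total counts (log2 fold change -0.20, adjusted p = 0.855) or by total counts without the 20 most abundant genes (log2 fold change -0.31, adjusted p = 0.208). Whole-gene counts include transcripts that lost only the floxed part and transcripts of cells without Cre, so this value is not a measure of how complete the deletion was.

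Of the 11199 genes tested, 2226 were called higher in Atg7-KO (19.9%) and 2027 lower (18.1%), where called means an adjusted p under 0.05 and a fold change above 1.5. The higher genes moved further: 871 of them exceeded a 4-fold change and 201 a 16-fold change, against 278 and 49 of the lower genes. The median log2 fold change of all tested genes was -0.03. These counts depend on how libraries are scaled. Scaling by total counts instead shifts the median gene by 0.55 on the log2 scale and gives 4312 higher and 796 lower of the same 11199 genes. The counts of each gene list are therefore followed by those with total-count scaling, given as with total counts, and changes are read against the median gene. The filter on low counts also bears on the lists, because a gene near 0 in cont. is tested only through its Atg7-KO or S351A counts. A gene that passed through Atg7-KO alone had to differ. For many lists with genes near 0 in cont. the counts are also given over members with at least 10 counts in every compared library, called the stricter filter. Over all genes that filter left 8896 tested, of which 1350 were called higher and 1514 lower. No count over a list is read as support. Counts of 1 to 3 members in a list often change by 1 or 2 when a library is left out. The position of the 3 cont. libraries below or above the 3 Atg7-KO libraries, with no overlap, was also recorded, with 26.7% of tested genes entirely higher in Atg7-KO and 24.9% entirely lower.

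The shares of counts taken by called genes describe genes chosen by this same comparison and carry no test. Genes called lower took 49.1%, 54.0% and 62.6% of all counts in the 3 cont. libraries and 24.5%, 24.8% and 24.9% in the Atg7-KO libraries. Genes called higher took 5.6%, 5.65% and 4.82% in cont. and 21.8%, 22.7% and 22.7% in Atg7-KO. Among the 2240 tested genes with the highest mean level, 245 were called higher and 732 lower, while among the 2240 with the lowest mean level the counts were 908 and 138. Major urinary protein genes, which encode pheromone carriers secreted by the liver, are counted here over 21 related genes. They took 6.73%, 2.83% and 16.8% of counts in cont. and 0.606%, 0.157% and 0.156% in Atg7-KO. The 2.83%, 0.157% and 0.156% are from females. Not every Mup gene was lower in Atg7-KO within each sex. Reads of close copies may be split between them by the counting, so single Mup genes are uncertain.

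**Figure D1:**
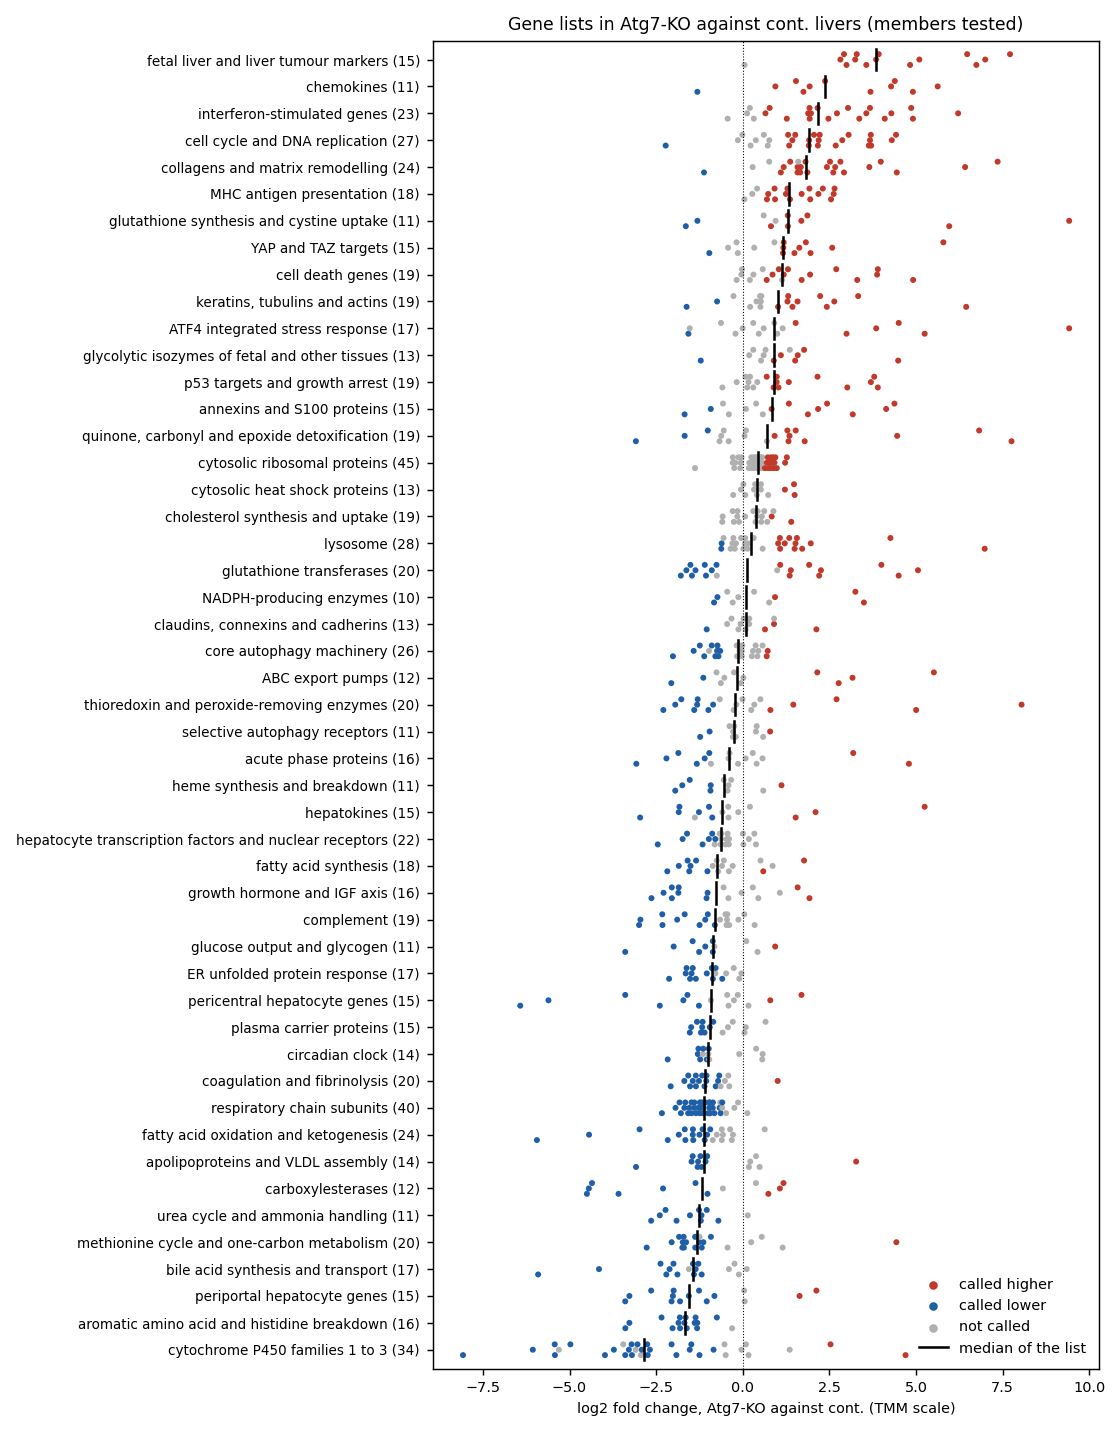
Log2 fold change (Atg7-KO over cont., horizontal axis) of the tested members of each gene list, 1 point per gene, red where called higher, blue where called lower and grey where not called; the black bar is the list's median and the number of tested members stands beside its name. Most lists of hepatocyte enzymes and secreted proteins have medians left of the all-gene median of -0.03, with cholesterol synthesis and uptake (0.37) and the glycolytic isozymes of other tissues (0.90) among those to its right, and fetal liver, chemokine, interferon, cell cycle and matrix lists have medians of 1.84 to 3.85. The cholesterol median was 0.15 without cont. 1 (1 member higher) and 0.71 without cont. 3 (9 higher).

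Many enzymes of the mature hepatocyte were called lower, in several pathways. Of 11 genes for the urea cycle and ammonia handling, which turn ammonia into urea, 10 were called lower and 0 higher, with a median log2 fold change of -1.26 (7 lower and 1 higher when scaled by total counts). Ass1, argininosuccinate synthase (chromosome 2, 31470207 to 31520672), fell from 1388, 2825 and 2396 CPM to 360, 326 and 371 CPM (log2 fold change -2.65, SE 0.32, adjusted p = 7.76e-05). The lowest cont. library was still far above the highest Atg7-KO library. Cps1, the mitochondrial enzyme that feeds ammonia into the cycle, stood at 626, 1278 and 1665 CPM in cont. and at 254, 370 and 325 CPM in Atg7-KO (log2 fold change -1.91, SE 0.40, adjusted p = 0.00254). Otc on the X chromosome fell by 1.52 on the log2 scale (SE 0.26, adjusted p = 0.000813) and Asl, argininosuccinate lyase, by 2.23 (SE 0.40, adjusted p = 0.00105).

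Breakdown of aromatic amino acids and histidine was the most uniform of these groups, with 15 of 16 genes called lower and 0 higher (median -1.67; 14 lower with total counts). Tat, tyrosine aminotransferase (chromosome 8, 109990437 to 109999803), fell from 1017, 1219 and 2143 CPM to 106, 147 and 165 CPM (log2 fold change -3.39, SE 0.57, adjusted p = 0.000647). Hal, which opens histidine breakdown, fell from 298, 348 and 574 CPM to 32.7, 47.0 and 47.1 CPM (log2 fold change -3.27, SE 0.36, adjusted p = 3.82e-05). Neither gene overlapped between groups. Hpd, the next tyrosine enzyme after Tat, fell by 2.35 on the log2 scale (adjusted p = 0.00104). In the methionine cycle and one-carbon metabolism, 14 of 20 tested genes were lower and 1 higher (9 and 4 with total counts). The stricter filter left 17 members, of which 14 were lower and 0 higher. Bhmt, which remethylates homocysteine with betaine, went from 3608, 5537 and 7384 CPM to 1229, 1705 and 1688 CPM, and Cbs, which commits homocysteine to cysteine, from 652, 619 and 515 CPM to 194, 172 and 184 CPM. Both fell beyond the replicate spread (adjusted p = 0.0018 and 0.000111). The member called higher was Mthfd1l, the mitochondrial formate-producing enzyme that is low in adult liver, with 1.27, 0 and 0.358 CPM in cont. and 10.9, 10.4 and 6.41 CPM in Atg7-KO (adjusted p = 0.000114).

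Bile acid genes called lower belonged to both synthesis and transport, with 12 of 17 tested called lower and 0 higher (median -1.44; 9 lower with total counts). Abcb11, the canalicular bile salt export pump (chromosome 2, 69238282 to 69342616), stood at 1233, 1129 and 1330 CPM in cont. and 271, 276 and 252 CPM in Atg7-KO (log2 fold change -2.21, SE 0.24, adjusted p = 3.57e-05). The replicates of each group were close together and the groups lay 4.62-fold apart. Slc10a1, the sodium-dependent bile acid uptake carrier, fell by 2.00 on the log2 scale (SE 0.35, adjusted p = 0.000879), and Cyp8b1, which makes cholic acid, by 1.41 (SE 0.29, adjusted p = 0.00238). Cyp7a1, the rate-limiting enzyme of the classical pathway, had 55.9, 68.0 and 52.2 CPM against 45, 52.0 and 35.7 CPM and did not pass the test (log2 fold change -0.40, adjusted p = 0.125), and its sign turns with total-count scaling (0.13).

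Lipid and sugar genes were less uniform. Fatty acid oxidation and ketogenesis had 15 of 24 genes lower and 0 higher (10 and 1 with total counts). Cpt2, which imports acyl groups into the mitochondrial matrix, fell from 211, 240 and 209 CPM to 82.1, 80.0 and 80.5 CPM (log2 fold change -1.44, SE 0.19, adjusted p = 0.000108). The groups were free of overlap. Acadm, medium-chain acyl-CoA dehydrogenase, fell by 1.25 on the log2 scale (adjusted p = 0.00539), and Ppara, the nuclear receptor for these genes, by 1.16 (adjusted p = 0.0064). With total counts both calls are lost (adjusted p = 0.0714 and 0.0921), and that of Ppara also without the 20 most abundant genes (adjusted p = 0.0518). In fatty acid synthesis 7 of 18 genes were lower and 2 higher (3 and 4 with total counts), a split that was 4 lower and 1 higher without Atg7-KO 1 and 9 and 1 without cont. 2. Srebf1, the lipogenic transcription factor, fell from 225, 133 and 425 CPM to 71.7, 77.5 and 69.1 CPM (adjusted p = 0.00179).

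Genes of glucose output and glycolytic isozymes of other tissues gave opposite counts. Of 11 genes for gluconeogenesis and glycogen, 7 were lower and 1 higher (4 and 3 with total counts). Pck1 fell from 1373, 2252 and 1911 CPM to 297, 534 and 558 CPM (log2 fold change -2.00, SE 0.43, adjusted p = 0.00304). G6pc, which releases free glucose, stood at 874, 154 and 1096 CPM in cont. and within 67.1 to 67.7 CPM in all 3 Atg7-KO libraries (log2 fold change -3.39, SE 0.53, adjusted p = 0.000422). The spread of G6pc was thus almost entirely among the controls, and the lowest of them still exceeded every Atg7-KO library. Of 13 glycolytic isozymes typical of fetal and other tissues, 6 were higher and 1 lower (12 and 1 with total counts). Hk2, the hexokinase of muscle and tumours (chromosome 6, 82725025 to 82774454), rose from 3.81, 4.23 and 1.97 CPM to 65.9, 62.8 and 67.3 CPM (log2 fold change 4.48, SE 0.34, adjusted p = 3.21e-06). Pkm rose from 20.3, 21.1 and 14.2 CPM to 49.4, 65.3 and 48.0 CPM (adjusted p = 0.00394) and Aldoa 2.14-fold (adjusted p = 0.00177). Ldha, which makes lactate from pyruvate, was the member that fell (log2 fold change -1.21, adjusted p = 0.00208).

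**Figure D2:**
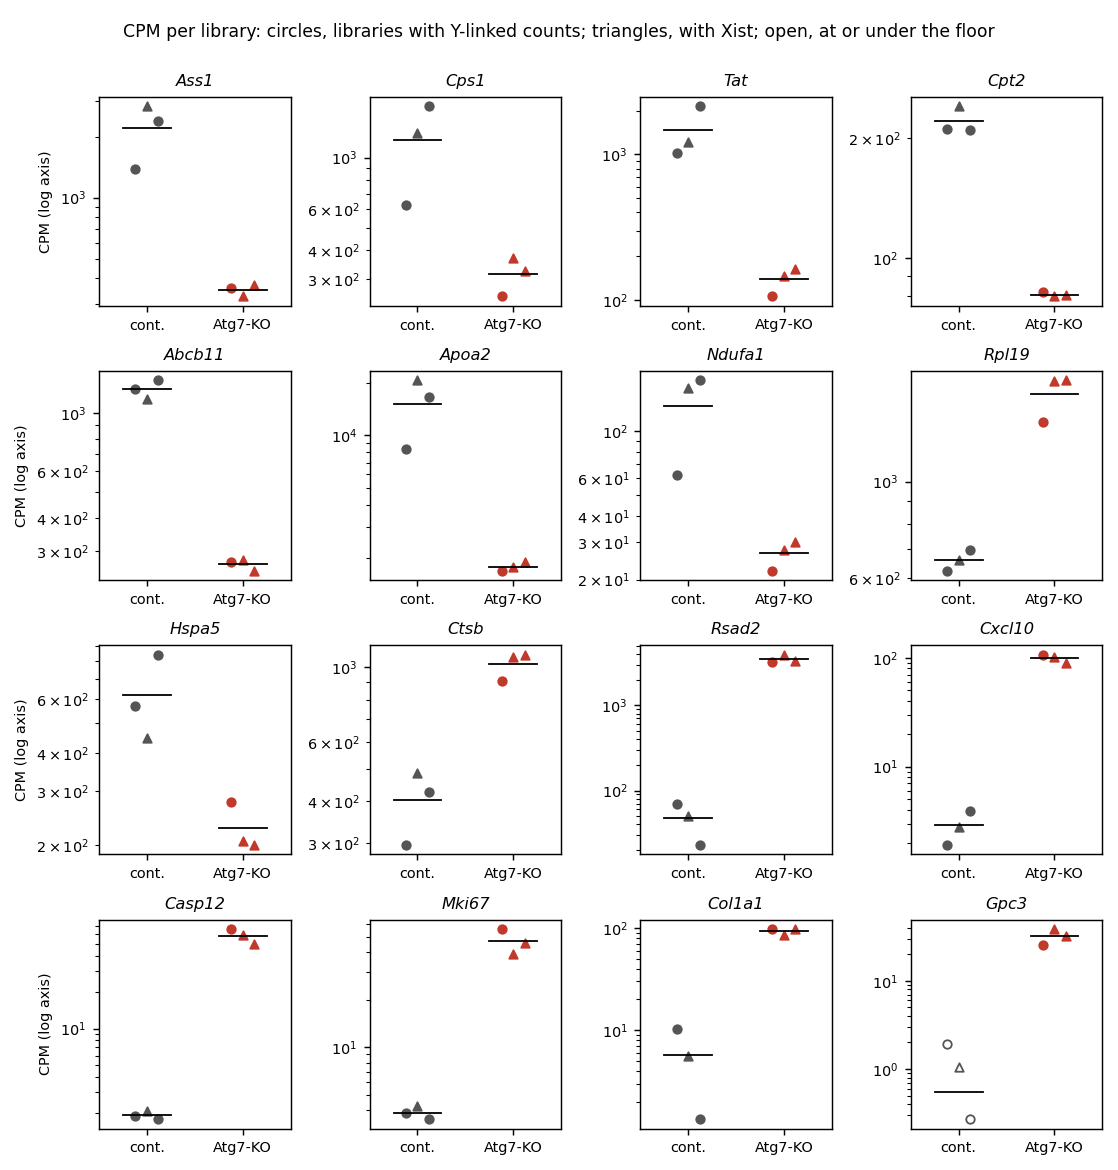
CPM on a log axis in each cont. (grey) and Atg7-KO (red) library for 16 genes, with the group mean as a bar. Circles are libraries with Y-linked counts, triangles libraries with Xist, and open symbols, drawn at the level of 3 counts, libraries at or under 3 counts. In all 16 panels the Atg7-KO libraries lie entirely above or entirely below the cont. libraries.

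Nuclear genes of the respiratory chain were mostly called lower. Of 40 respiratory chain subunits, 33 were called lower and 0 higher (median -1.11). With total counts 15 were lower and 1 higher, and without Atg7-KO 1 there were 21 lower. Members of complexes I to IV and of the ATP synthase were among them. Ndufa1, a complex I subunit on the X chromosome, fell from 62.3, 160 and 174 CPM to 22, 27.6 and 30.2 CPM (log2 fold change -2.33, SE 0.36, adjusted p = 0.000355). Uqcrq of complex III fell from 1118, 1576 and 1031 CPM to 350, 382 and 448 CPM (log2 fold change -1.66, SE 0.26, adjusted p = 0.000464), and Cox7c of complex IV from 999, 877 and 809 CPM to 355, 407 and 453 CPM (log2 fold change -1.15, SE 0.24, adjusted p = 0.00251), a call lost with total counts (log2 fold change -0.62, adjusted p = 0.0613). No library of 1 group reached into the other for these 3 genes. Sdha of complex II, at 130, 160 and 237 CPM against 111, 113 and 126 CPM, did not pass (adjusted p = 0.0582).

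Of 45 cytosolic ribosomal protein genes, 15 were called higher, 0 lower and 30 were not called (median 0.43). With total counts 36 were higher. This count leans on single libraries, with 9 higher without cont. 1 or cont. 2 and 6 without Atg7-KO 2 or Atg7-KO 3. Many ribosomal protein genes also have processed copies that can share their reads. Rpl19 rose from 624, 658 and 697 CPM to 1369, 1701 and 1709 CPM (log2 fold change 1.27, SE 0.23, adjusted p = 0.00105), and Rps2 from 600, 684 and 772 CPM to 1104, 1388 and 1336 CPM (log2 fold change 0.90, SE 0.22, adjusted p = 0.00672). Both were free of overlap, with the 3 controls in a narrow band. As a share of all counts, the 45 genes took 1.23% to 1.31% in cont. and 2.47% to 2.85% in Atg7-KO. Eef1a1, the elongation factor that brings aminoacyl-tRNA to the ribosome, rose from 2571, 2992 and 3274 CPM to 5376, 5724 and 5806 CPM (log2 fold change 0.94, SE 0.24, adjusted p = 0.00838).

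Plasma proteins made by the liver held many genes called lower. Of 14 apolipoprotein and VLDL assembly genes, 9 were lower and 1 higher (6 and 5 with total counts). Apoa2, a major protein of high-density lipoprotein (chromosome 1, 171225054 to 171226379), fell from 8402, 20572 and 16475 CPM to 1697, 1785 and 1890 CPM (log2 fold change -3.08, SE 0.39, adjusted p = 9.91e-05). Apoe fell from 12484, 27381 and 26868 CPM to 8251, 7543 and 8141 CPM (log2 fold change -1.48, SE 0.33, adjusted p = 0.00354). For both, cont. 1 was the lowest control and still lay above every Atg7-KO library. Apoa4, an apolipoprotein of triglyceride-rich particles, rose from 26.1, 122 and 84.8 CPM to 681, 835 and 757 CPM (log2 fold change 3.27, SE 0.46, adjusted p = 0.000209).

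Clotting factors were lower in 15 of 20 cases and higher in 1 (8 and 1 with total counts). F7, the factor that opens the tissue factor pathway, fell from 57.8, 116 and 100 CPM to 25.1, 17.9 and 22 CPM (log2 fold change -2.08, SE 0.32, adjusted p = 0.000329), and Fgg, the fibrinogen gamma chain, from 770, 1230 and 1564 CPM to 437, 368 and 303 CPM (log2 fold change -1.69, SE 0.28, adjusted p = 0.000597). Serpinc1, antithrombin, which opposes clotting, fell too (log2 fold change -1.44, SE 0.28, adjusted p = 0.00161). Procoagulant and anticoagulant members were thus both lower. Complement genes were lower in 10 of 19 cases and higher in 0 (6 and 1 with total counts). C8a, a subunit of the membrane attack complex, went from 1033, 374 and 949 CPM to 148, 72.9 and 73.7 CPM (adjusted p = 0.000165), whereas C9, its partner, at 334, 82.4 and 328 CPM against 205, 131 and 136 CPM, overlapped between groups (adjusted p = 0.239). C9 was lower in the Atg7-KO male than in the cont. males and higher in the Atg7-KO females than in the cont. female. C8a was lower in both sexes.

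Among 15 plasma carriers, 9 were lower and 0 higher, and 5 were lower without any 1 of the Atg7-KO libraries (3 lower and 2 higher with total counts). Albumin itself (Alb) had 28420, 71346 and 66723 CPM in cont. and 21355, 27303 and 25181 CPM in Atg7-KO (log2 fold change -1.17, SE 0.37, adjusted p = 0.0256), a call lost without cont. 2 or any of the 3 Atg7-KO libraries (adjusted p = 0.0641 to 0.0931) and with total counts (adjusted p = 0.158). The acute phase list had 6 lower and 2 higher of 16 (5 and 0 of 11 under the stricter filter). Its median of -0.40 turns positive with total counts (4 lower and 3 higher). Without cont. 2 there were 4 higher, and the median was -0.69 without cont. 1 and -0.23 without Atg7-KO 1. Hamp, which encodes the iron hormone hepcidin, fell from 811, 1082 and 718 CPM to 234, 209 and 277 CPM (log2 fold change -1.86, SE 0.32, adjusted p = 0.000814), and Saa3 from 11.4, 32.4 and 12.9 CPM to 1.86, 1.08 and 4.12 CPM (adjusted p = 0.000849). The 2 that rose were Lcn2, lipocalin-2, an iron-siderophore binder of the acute phase, from 3.81, 11.6 and 1.97 CPM to 120, 152 and 170 CPM (log2 fold change 4.79, SE 0.53, adjusted p = 3.53e-05, and 5.92 without cont. 2 and 4.13 without cont. 3), and Il1rn, the interleukin-1 receptor antagonist, 9.11-fold (log2 fold change 3.19, adjusted p = 0.000155, and 3.80 without cont. 2 and 2.51 without cont. 3). Members of 1 list therefore parted widely in direction.

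Hormone-like products of the liver also split. Of 15 tested, 6 were lower and 3 higher (3 and 3 with total counts). The stricter filter left 11 members, of which 4 were lower and 1 higher. Fgf21, a fasting and stress hormone, was all but silent in cont. (0, 0.704 and 0.0896 CPM; 3 counts in all) and stood at 13.9, 7.18 and 5.95 CPM in Atg7-KO (adjusted p = 0.000132). Gdf15, another stress hormone, rose from 18.4, 29.9 and 10.8 CPM to 37.1, 66.8 and 61.8 CPM (log2 fold change 1.53, SE 0.36, adjusted p = 0.00547), a call lost in a fit with 1 library of each sex per compared group (adjusted p = 0.0554). Inhbe, activin E, fell from 43.9, 22.5 and 36.9 CPM to 5.10, 3.59 and 4.12 CPM (log2 fold change -2.96, SE 0.38, adjusted p = 9.63e-05).

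Drug- and toxin-handling genes moved in both directions. Cytochrome P450 genes of families 1 to 3 were lower in 22 of 34 tested cases and higher in 2 (19 and 4 with total counts; 18 and 4 without cont. 2), with a median of -2.84 that is -1.41 without cont. 2. Cyp2e1, the ethanol- and paracetamol-oxidising enzyme (chromosome 7, 140763739 to 140774987), fell from 1627, 5535 and 4222 CPM to 340, 389 and 355 CPM (log2 fold change -3.39, SE 0.46, adjusted p = 0.000144). Cyp2c29 fell from 179, 178 and 370 CPM to 14.4, 18.7 and 22.9 CPM (log2 fold change -3.72, SE 0.40, adjusted p = 3.19e-05), and Cyp3a11 from 799, 1745 and 5213 CPM to 300, 264 and 281 CPM (log2 fold change -3.20, SE 0.55, adjusted p = 0.000727, and -2.18 without cont. 3). The 2 that rose were the neighbours Cyp2a5 and Cyp2a4 on chromosome 7, close copies between which reads may be split. Cyp2a5, the coumarin hydroxylase, went from 1668, 2059 and 861 CPM to 7311, 9656 and 9568 CPM (log2 fold change 2.53, SE 0.34, adjusted p = 0.000135). Cyp1a2, at 656, 1016 and 1222 CPM against 865, 1262 and 1121 CPM, did not pass (adjusted p = 0.67).

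Glutathione transferases, which couple glutathione to reactive compounds, divided evenly, with 9 of 20 tested genes higher and 9 lower (10 and 4 with total counts). Gsta1, of the alpha class, rose from 54.0, 19 and 28.7 CPM to 815, 1256 and 1253 CPM (log2 fold change 5.06, SE 0.40, adjusted p = 3.97e-06), and Gstm3, of the mu class, from 125, 82.0 and 93.6 CPM to 2165, 2188 and 2432 CPM (log2 fold change 4.50, SE 0.27, adjusted p = 7.13e-07). Gstt3, of the theta class, fell by 1.79 on the log2 scale (SE 0.42, adjusted p = 0.00527), and Gstz1, which also serves tyrosine breakdown, by 1.31 (SE 0.22, adjusted p = 0.000676). Alpha and mu genes have close paralogs, so the counts of single members are uncertain. The thioredoxin and peroxide-removing list was divided too, with 5 of 20 higher and 8 lower and a median of -0.22 that ranges from -0.38 without cont. 1 to -0.057 without cont. 3 and turns positive with total counts (8 higher and 5 lower). Glutathione synthesis and cystine uptake had 7 of 11 higher and 2 lower (8 and 2 with total counts; 5 and 2 of 8 under the stricter filter). Srxn1, sulfiredoxin, which repairs over-oxidised peroxiredoxins, rose from 64.2, 58.8 and 47.4 CPM to 1465, 2126 and 1853 CPM (log2 fold change 5.00, SE 0.32, adjusted p = 1.03e-06). Txnrd1, cytosolic thioredoxin reductase, rose from 106, 78.5 and 107 CPM to 279, 290 and 234 CPM (log2 fold change 1.46, SE 0.23, adjusted p = 0.000436). Sod1, the cytosolic superoxide dismutase, fell from 1315, 1816 and 1857 CPM to 317, 345 and 357 CPM (log2 fold change -2.29, SE 0.28, adjusted p = 6.63e-05). All 3 were free of overlap. Gpx2, a glutathione peroxidase of the gut lining, had 1 count in the 3 cont. libraries together and stood at 27.8, 27.3 and 27.5 CPM in Atg7-KO (adjusted p = 4.77e-07).

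Among NADPH-producing enzymes 3 of 10 were higher and 2 lower (5 and 0 with total counts). G6pdx, which opens the pentose phosphate pathway (chromosome X, 74409483 to 74429194), rose from 1.27, 4.58 and 4.75 CPM to 46.4, 47.7 and 44.4 CPM (log2 fold change 3.50, SE 0.34, adjusted p = 1.58e-05). Carbonyl and quinone detoxification had 9 of 19 tested genes higher and 3 lower (median 0.70, and 10 and 2 with total counts). Under the stricter filter 6 of 16 were higher and 3 lower (median 0.22). Cbr3, a carbonyl reductase, rose from 0.636, 1.41 and 0.627 CPM to 161, 210 and 177 CPM (log2 fold change 7.76, SE 0.34, adjusted p = 2.38e-07). The ferritin chains, which store iron, rose together and are among the most abundant genes called higher: Fth1 went from 1508, 1752 and 1881 CPM to 4302, 6380 and 6150 CPM (log2 fold change 1.71, SE 0.26, adjusted p = 0.000351), and Ftl1 from 4573, 4922 and 4422 CPM to 9421, 11767 and 11252 CPM (log2 fold change 1.22, SE 0.25, adjusted p = 0.00203). Both have processed copies in the genome. Of 11 genes of heme synthesis and breakdown, 5 were lower and 1 higher (3 and 2 with total counts; 3 lower without Atg7-KO 1 or Atg7-KO 3). Heme oxygenase 1 (Hmox1), at 5.72, 2.11 and 6.36 CPM against 7.89, 5.74 and 8.69 CPM, overlapped between groups (adjusted p = 0.249).

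Carboxylesterases, which split drug and lipid esters, were lower in 7 of 12 tested cases and higher in 3 (6 and 4 with total counts; 1 higher without cont. 1, Atg7-KO 1 or Atg7-KO 3). Ces2a fell from 421, 325 and 501 CPM to 103, 70.4 and 79.6 CPM (log2 fold change -2.30, SE 0.24, adjusted p = 2.5e-05). Ces3a fell from 5887, 1420 and 3585 CPM to 350, 60.7 and 69.1 CPM (adjusted p = 0.000663), and within each group its lowest values were in females. Export pumps had 4 of 12 higher and 2 lower (4 and 1 with total counts; 4 and 4 without cont. 2). Under the stricter filter 2 of 10 were higher and 2 lower. Abcc4, a basolateral pump for conjugates and bile acids (chromosome 14, 118482692 to 118706219), rose from 7.63, 5.28 and 2.60 CPM to 195, 229 and 188 CPM (log2 fold change 5.52, SE 0.36, adjusted p = 1.23e-06), Abcb1a, P-glycoprotein, from 0, 4.58 and 2.42 CPM to 24.6, 25.1 and 20.6 CPM (adjusted p = 0.000454), while Abcc6 fell from 536, 613 and 477 CPM to 119, 137 and 133 CPM (adjusted p = 0.000123).

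For 5 lists of redox and conjugation genes (transferases, glutathione synthesis, thioredoxin and peroxide-removing, NADPH-producing, and carbonyl and quinone genes), RefSeq promoter windows of the GRCm38.p6 assembly were searched for the core of the antioxidant response element, TGACNNNGC, on both strands in the 250 bases before each start site. Of 73 genes with a window, 12 held it (16.4%), as did 6 of 31 called higher (19.4%), 4 of 21 called lower (19%) and 2 of 19 not called (10.5%). It was held by 14.2% of 8572 tested genes with a window and by 11.5% of 27018 genes in the promoter table. The windows below show the match, in capitals on the gene's own strand, in 2 genes that rose and 1 that fell.
G6pdx (chrX:74428904-74428962, minus strand): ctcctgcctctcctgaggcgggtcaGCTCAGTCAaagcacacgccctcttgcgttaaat
Txnrd1 (chr10:82859089-82859147, plus strand): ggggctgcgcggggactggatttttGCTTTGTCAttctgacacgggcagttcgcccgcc
Sod1 (chr16:90220681-90220739, plus strand): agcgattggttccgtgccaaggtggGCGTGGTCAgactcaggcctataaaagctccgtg
A match is a description of the window and not a shown binding site.

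Of 16 genes of the growth hormone and IGF axis, 8 were lower and 2 higher (6 and 3 with total counts). Pulsatile growth hormone in males keeps male-biased liver genes on, through the growth hormone receptor and STAT5B. Ghr (chromosome 15, 3317760 to 3583492) fell from 475, 364 and 534 CPM to 71.7, 81.8 and 67.3 CPM (log2 fold change -2.64, SE 0.25, adjusted p = 1.27e-05). The genes of 2 circulating proteins of this axis were lower too. Igf1 went from 3314, 2798 and 1273 CPM to 796, 649 and 605 CPM (log2 fold change -1.85, SE 0.33, adjusted p = 0.00103), and Igfals, the acid-labile subunit that holds IGF1 in blood, from 92.8, 157 and 105 CPM to 33.9, 29.4 and 22 CPM (log2 fold change -2.05, SE 0.29, adjusted p = 0.000228). None of these 3 genes overlapped between groups. Igfbp1, 1 of the 2 members called higher, rose from 31.1, 60.6 and 31.8 CPM to 106, 127 and 138 CPM (log2 fold change 1.58, SE 0.31, adjusted p = 0.00173). The other, which encodes a feedback inhibitor of this axis, is not described here. Socs2, a direct STAT5 target and feedback inhibitor, had 82.0, 93.3 and 6.45 CPM against 190, 91.5 and 89.2 CPM and did not pass (adjusted p = 0.236).

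Of 12 tested male-biased genes, 10 were called lower and 0 higher (median -3.72; 9 lower with total counts). The filter was applied anew in each fit, so the number of members tested changes. Without cont. 1 there were 7 lower of 12 tested, and without cont. 2, the cont. female, 13 of 13. In the fit with 1 library of each sex per compared group there were 6. Since the cont. libraries hold 2 males and the Atg7-KO libraries 1, levels within a sex are given without a test. Mup3 averaged 12001 CPM in the 2 cont. males and 157 CPM in the Atg7-KO male, and stood at 1920 CPM in the cont. female and at a mean of 39.7 CPM in the 2 Atg7-KO females. It was lower in both sexes. Elovl3, a fatty acid elongase, had 882 and 654 CPM in the cont. males, 18 CPM in the cont. female, 6.96 CPM in the Atg7-KO male and 0 in both Atg7-KO females. Serpina1e, an alpha-1-antitrypsin copy, was 35.2 times as high in cont. males as in the cont. female and 5.17 times as high in the Atg7-KO male as in the Atg7-KO females. For Cyp2d9 this ratio was 17 in cont. and 1.98 in Atg7-KO, and for Selenbp2 87.2 and 1.98. In both of these genes the Atg7-KO females lay above the cont. female, at 136 CPM against 18 CPM for Selenbp2, while the Atg7-KO male lay below the cont. males. Selenbp2 did not pass the test between groups (adjusted p = 0.0567), and the call for Cyp2d9 is lost without cont. 1, cont. 3 or any 1 of the Atg7-KO libraries (adjusted p = 0.0507 to 0.0945), with total counts (adjusted p = 0.0563), with limma-voom (adjusted p = 0.116) and with sex as a covariate (log2 fold change -1.19, adjusted p = 0.107). The male to female ratio was thus smaller in Atg7-KO for Serpina1e, Cyp2d9 and Selenbp2, with 1 or 2 libraries of a sex per group and no test.

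Of 9 tested female-biased genes, 1 was higher and 2 lower (1 and 1 with total counts), and these counts swing with single libraries. The members tested change too. Without cont. 1 there were 1 higher and 7 lower of 14 tested, and without cont. 3 1 and 10 of 14. Without cont. 2, the only cont. female, there were 3 and 0 of 8, and without any 1 of the Atg7-KO libraries 1 and 0. The fit with 1 library of each sex per compared group gave 1 higher and 7 lower. The list as a whole is therefore given no direction. Cyp2a4 stood at 16.5 and 4.66 CPM in the cont. males and at 610 CPM in the cont. female, against 3572 CPM in the Atg7-KO male and 6264 and 6541 CPM in the Atg7-KO females. The female to male ratio was 57.6 in cont. and 1.79 in Atg7-KO, and the Atg7-KO male exceeded the cont. female. Cyp2b13 and Cyp3a41a went the opposite way. Cyp2b13 had 299 CPM in the cont. female, 0 in the cont. males and at most 0.915 CPM in Atg7-KO. Its call (adjusted p = 0.0211) is lost without any 1 of the Atg7-KO libraries (adjusted p = 0.0595 to 0.0861). Cyp3a41a had 5111 CPM in the cont. female and 32.7 and 98.4 CPM in the Atg7-KO females. Because these levels rest on 1 cont. female, the sign of both turns positive without cont. 2. A1bg fell below the filter because only that library held many counts, with 85.6 CPM there and at most 0.915 CPM in every Atg7-KO library, and was not tested.

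**Figure D3:**
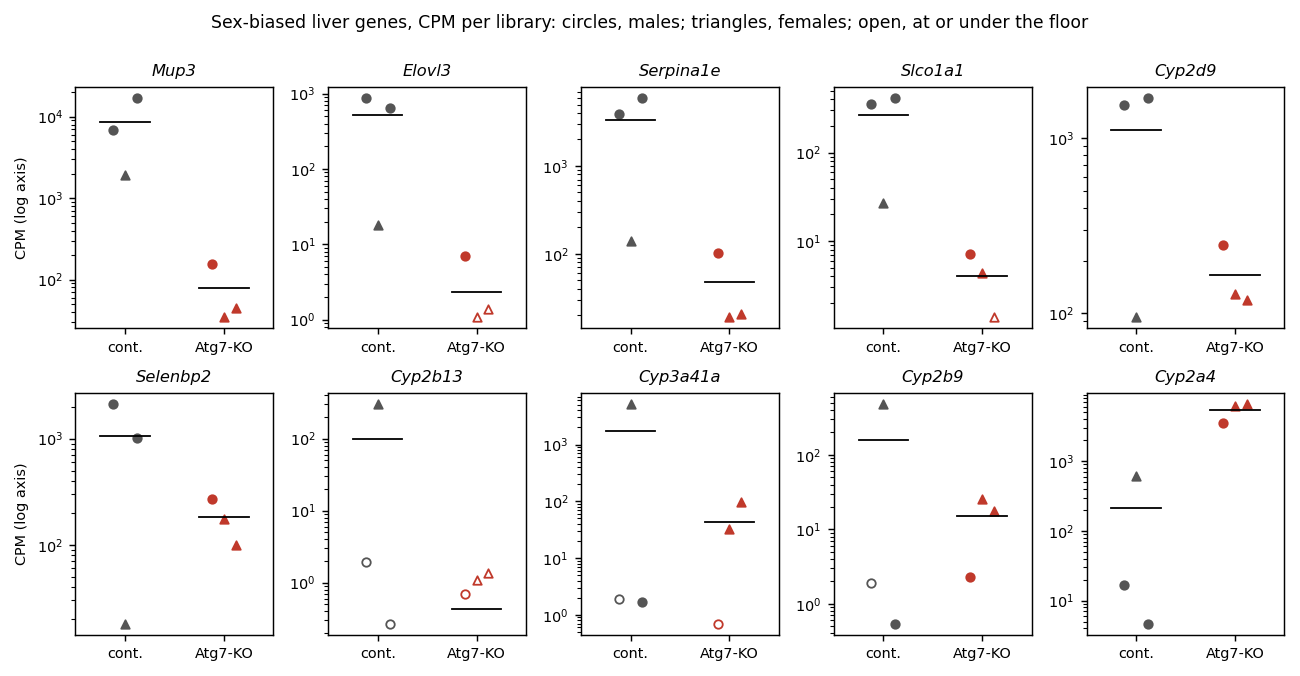
CPM on a log axis of 10 sex-biased liver genes in each cont. (grey) and Atg7-KO (red) library, with males as circles, females as triangles, the group mean as a bar and open symbols, drawn at the level of 3 counts, for libraries at or under 3 counts. Mup3, Elovl3, Serpina1e and Slco1a1 are lower in every Atg7-KO library than in any cont. library, whereas Cyp2a4 is higher in all 3.

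Genes of both zones of the liver lobule were among those called lower. Near the central vein, 7 of 15 tested pericentral genes were lower and 2 higher (6 and 3 with total counts). Oat, ornithine aminotransferase (chromosome 7, 132557478 to 132576398), fell from 1197, 2371 and 1125 CPM to 32.2, 23.3 and 40.7 CPM (log2 fold change -5.61, SE 0.55, adjusted p = 1.71e-05). Slc1a2, a glutamate transporter, fell from 102, 323 and 148 CPM to 1.62, 2.87 and 2.29 CPM (log2 fold change -6.42, SE 0.62, adjusted p = 1.58e-05), and Glul, glutamine synthetase, from 802, 1525 and 859 CPM to 186, 228 and 192 CPM (log2 fold change -2.39, SE 0.30, adjusted p = 7.83e-05). These 3 mark the innermost rim of hepatocytes, and each was lower in every Atg7-KO library. The 2 pericentral members called higher are not described here. The rim has other markers, so these 3 do not speak for all of it. Lgr5, a receptor that amplifies Wnt signals there, fell by 1.72 on the log2 scale (SE 0.31, adjusted p = 0.00096). Near the portal vein, 11 of 15 periportal genes were lower and 2 higher (8 and 2 with total counts), among them Ass1, Hal, Pck1 and G6pc. The 2 that rose were Cdh1, E-cadherin, which bile duct cells also express, from 17.8, 7.75 and 58.9 CPM to 129, 127 and 135 CPM (adjusted p = 0.00554), and Aldh1b1, from 34.3, 30.6 and 45.2 CPM to 111, 113 and 124 CPM (adjusted p = 0.000148).

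Transcription factors that maintain the hepatocyte were mostly not called, with 7 of 22 tested lower and 0 higher (3 and 2 with total counts; 12 lower without cont. 3). Hnf4a, the central one, had 502, 714 and 453 CPM against 621, 838 and 712 CPM (log2 fold change 0.38, SE 0.25, adjusted p = 0.251). Of the 7 that fell, 5 were nuclear receptors. Nr1i3, the xenobiotic receptor CAR, went from 338, 429 and 152 CPM to 49.9, 71.1 and 46.2 CPM (log2 fold change -2.45, SE 0.37, adjusted p = 0.000347), and Nr1h4, the bile acid receptor FXR, from 333, 320 and 238 CPM to 94.9, 103 and 93.8 CPM (log2 fold change -1.61, SE 0.28, adjusted p = 0.000853). In the circadian clock, 7 of 14 tested genes were lower and 0 higher (2 lower with total counts). Nfil3, a clock-controlled repressor, fell from 85.8, 74.7 and 41.3 CPM to 12.5, 20.1 and 11.4 CPM (log2 fold change -2.17, SE 0.38, adjusted p = 0.000862). Dbp, among the most strongly cycling liver transcripts, had 3.81, 3.52 and 7.62 CPM against 5.34, 5.74 and 14.2 CPM (adjusted p = 0.423). The time of day of collection was not given in the sources used here.

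Autophagy genes themselves showed no common direction. Of 26 tested genes of the core machinery, 10 were lower and 2 higher, with a median of -0.13 that turns positive with total counts (3 lower and 8 higher). The median was -0.22 without cont. 2 and -0.073 without Atg7-KO 1, and no member was higher without Atg7-KO 2. Atg5, part of a conjugate needed for the sac to grow, fell from 82.0, 50.7 and 63.0 CPM to 26.7, 27.6 and 27.9 CPM (log2 fold change -1.24, SE 0.26, adjusted p = 0.00247). Atg3, an E2-like enzyme that acts after ATG7, fell from 114, 97.2 and 120 CPM to 36.2, 51.7 and 36.1 CPM (log2 fold change -1.42, SE 0.26, adjusted p = 0.001). Among 11 receptors that load cargo, 2 were lower and 1 higher (0 and 4 with total counts). Optn and Bnip3 were lower (log2 fold change -0.96 and -1.23, adjusted p = 0.00249 and 0.00594; both calls are lost with total counts, adjusted p = 0.11 and 0.0827) and Stbd1, which binds glycogen, was higher (log2 fold change 0.79, adjusted p = 0.0148), a call lost without cont. 2, Atg7-KO 2 or Atg7-KO 3.

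Lysosomal genes were higher in 12 of 28 cases and lower in 2 (18 and 0 with total counts). Ctsb, cathepsin B (chromosome 14, 63122462 to 63145923), rose from 297, 485 and 425 CPM to 908, 1068 and 1088 CPM (log2 fold change 1.34, SE 0.25, adjusted p = 0.00115), and Ctsd, cathepsin D, from 159, 166 and 188 CPM to 369, 407 and 413 CPM (log2 fold change 1.21, SE 0.23, adjusted p = 0.00144). Cd63, a tetraspanin of late endosomes, rose from 6.99, 7.39 and 4.03 CPM to 103, 96.6 and 128 CPM (log2 fold change 4.26, SE 0.36, adjusted p = 6.22e-06). Members that macrophages also express were among them: Cd68 rose from 9.54, 11.3 and 8.96 CPM to 26.4, 28.4 and 30.2 CPM (adjusted p = 0.000157), and Gpnmb, at 0 in all 3 cont. libraries, stood at 3.71, 5.74 and 6.41 CPM, at least 4.91-fold higher against a floor of 3 counts per library. Recruited and lipid-associated macrophage markers were higher in 9 of 9 tested cases (9 with total counts, but only 2 members pass the stricter filter, both higher), with a summed level of 24.2 to 52.4 CPM in cont. and 275 to 330 CPM in Atg7-KO; their part in the lysosomal result was not tested.

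Chaperones of the endoplasmic reticulum were mostly called lower and those of the cytosol mostly not called. Of 17 tested genes of the unfolded protein response, 12 were lower and 0 higher (median -0.89; 6 lower with total counts). Hspa5, the chaperone BiP (chromosome 2, 34771970 to 34777547), fell from 568, 449 and 840 CPM to 277, 205 and 200 CPM (log2 fold change -1.44, SE 0.27, adjusted p = 0.00129). Hsp90b1, GRP94, fell from 1838, 1688 and 1582 CPM to 603, 598 and 632 CPM (log2 fold change -1.48, SE 0.22, adjusted p = 0.00025), and Sdf2l1 from 26.1, 28.2 and 62.4 CPM to 8.82, 9.69 and 9.15 CPM (log2 fold change -2.13, SE 0.34, adjusted p = 0.000445). All 3 were free of overlap, with the Atg7-KO libraries nearly equal to each other for Hsp90b1 and Sdf2l1. Of 13 tested cytosolic heat shock proteins, 3 were higher and 0 lower (9 higher with total counts; 6 without cont. 3): Dnajb1, from 23.5, 22.9 and 23.7 CPM to 53.8, 79.0 and 63.1 CPM (adjusted p = 0.000171), Hspb1, 2.32-fold (adjusted p = 0.00251), and Cryab, 2.82-fold (adjusted p = 0.00381).

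The integrated stress response, in which the factor ATF4 raises amino acid transporters and stress genes, had 6 of 17 tested genes higher and 1 lower (12 and 1 with total counts; 1 and 1 of 7 under the stricter filter). Atf3 rose from 1.91, 1.76 and 2.33 CPM to 31.3, 35.2 and 26.5 CPM (log2 fold change 3.85, SE 0.41, adjusted p = 2.9e-05), and Slc1a4, a neutral amino acid carrier, from 5.09, 5.28 and 6.00 CPM to 122, 156 and 105 CPM (log2 fold change 4.50, SE 0.38, adjusted p = 5.37e-06). Other well-known members did not pass: Ddit3, CHOP, had 24.2, 34.5 and 15.4 CPM against 32.2, 32.3 and 35.2 CPM (adjusted p = 0.231), and Trib3 had 5.09, 21.8 and 10.8 CPM against 11.4, 9.69 and 12.4 CPM (adjusted p = 0.715). Asns was below the filter, with 31 counts in cont. and 6 in Atg7-KO.

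**Figure D4:**
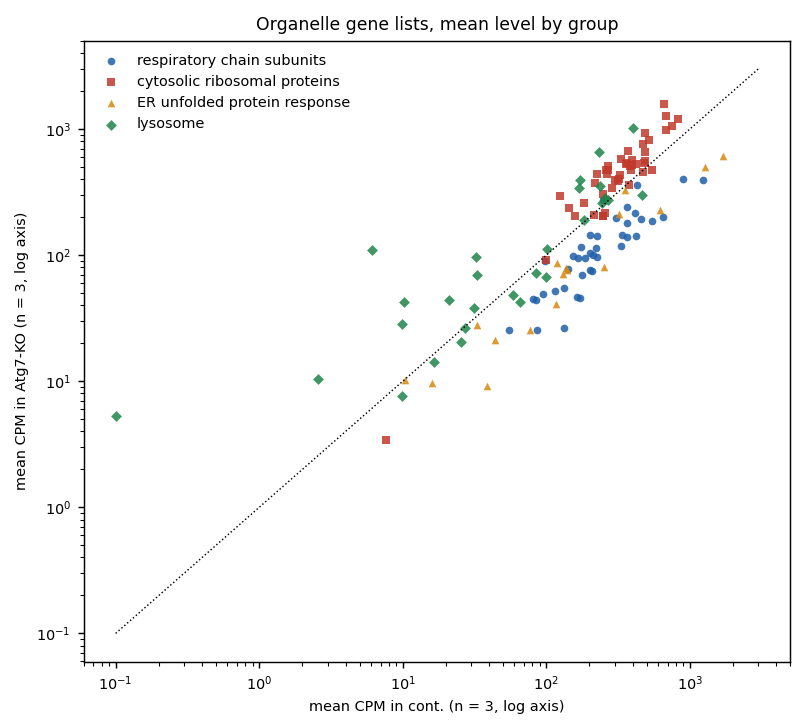
Mean CPM in Atg7-KO against mean CPM in cont. (n = 3 each, both log axes), 1 point per gene of 4 lists, with the dotted line at equality and means under 0.1 CPM drawn at 0.1. Nearly all respiratory chain and unfolded protein response genes lie below the line, most ribosomal genes lie above it, and lysosomal genes lie on both sides.

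Growth arrest and death genes were called higher or not called. Of 19 tested p53 targets and arrest genes, 11 were higher and 0 lower (14 with total counts; 5 of 12 under the stricter filter), although the count was 6 or 7 without cont. 1, Atg7-KO 2 or Atg7-KO 3. Tnfrsf10b, the death receptor for TRAIL, rose from 1.91, 1.41 and 0.717 CPM to 13, 17.6 and 18.8 CPM (log2 fold change 3.90, SE 0.54, adjusted p = 0.000179, and 3.29 without cont. 3), and Ccng1 from 21.6, 29.6 and 30.3 CPM to 40.6, 90.8 and 77.8 CPM (adjusted p = 0.00351). Cdkn1a, the cell cycle inhibitor p21, had 2.54, 52.1 and 5.91 CPM against 54.1, 99.1 and 118 CPM (log2 fold change 2.16, SE 0.72, adjusted p = 0.0319, and 4.14 without cont. 2), with the cont. female close to the lowest Atg7-KO library. The Cdkn1a call is lost without cont. 1, cont. 3, Atg7-KO 2, Atg7-KO 3 or S351A 2 (adjusted p = 0.05 to 0.0975). Mdm2 overlapped between groups (adjusted p = 0.238). Of 19 tested cell death genes, 12 were higher and 0 lower (16 with total counts; 6 of 11 under the stricter filter). Casp12, an inflammatory caspase (chromosome 9, 5345430 to 5373032), rose from 1.91, 2.11 and 1.79 CPM to 66.1, 58.5 and 49.4 CPM (log2 fold change 4.92, SE 0.25, adjusted p = 4.2e-07), and its neighbour Casp4 9.87-fold (adjusted p = 6.58e-05). Mlkl, the executor of necroptosis, rose from 5.09, 6.69 and 4.57 CPM to 34.3, 34.1 and 35.2 CPM (log2 fold change 2.70, SE 0.29, adjusted p = 2.82e-05), and Tnfrsf12a, the TWEAK receptor, from 5.09, 3.52 and 5.73 CPM to 70.8, 83.6 and 66.4 CPM (adjusted p = 6.99e-06). Gsdmd, the pore protein of pyroptosis, overlapped between groups (adjusted p = 0.515).

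Of 27 tested cell cycle and replication genes, 19 were higher and 1 lower (median 1.92; 22 and 1 with total counts). Under the stricter filter 3 of 8 were higher and 1 lower (median 0.61), since most of the tested members had fewer than 10 counts in at least 1 compared library. Mki67, a marker of dividing cells (chromosome 7, 135689784 to 135716361), rose from 3.81, 4.23 and 3.49 CPM to 56.1, 39.1 and 45.8 CPM (log2 fold change 3.64, SE 0.24, adjusted p = 1.3e-06). Top2a rose from 3.81, 1.76 and 1.97 CPM to 48.0, 34.5 and 50.3 CPM (log2 fold change 4.30, SE 0.31, adjusted p = 2.21e-06), and Ccnd1, cyclin D1, from 17.2, 72.9 and 17.7 CPM to 244, 223 and 225 CPM (log2 fold change 2.68, SE 0.47, adjusted p = 0.000874, and 3.71 without cont. 2). The groups did not overlap for any of these. The exception was Tk1, thymidine kinase, which fell from 37.5, 68.7 and 38.2 CPM to 7.89, 14 and 9.15 CPM (adjusted p = 0.000375). Which cells these transcripts came from cannot be read from whole liver. YAP and TAZ targets were higher in 9 of 15 tested cases and lower in 1 (median 1.17; 11 and 0 with total counts; 7 and 1 of 12 under the stricter filter). Ankrd1 rose from 1.27, 1.06 and 0.448 CPM to 51.3, 31.9 and 35.2 CPM (log2 fold change 5.79, SE 0.43, adjusted p = 2.67e-06, and 5.05 without cont. 3) and Ctgf from 3.81, 4.58 and 2.33 CPM to 22.7, 14 and 22 CPM (adjusted p = 0.000317).

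Of 15 tested fetal liver and liver tumour markers, 14 were higher and 0 lower (median 3.85; 14 and 0 with total counts). Only 4 of them pass the stricter filter, 3 of which were higher. The rest had fewer than 10 counts in at least 1 compared library, and those that passed through Atg7-KO alone had to differ. Afp, alpha-fetoprotein (chromosome 5, 90490737 to 90508907), rose from 1.91, 4.23 and 1.52 CPM to 13, 18.3 and 26.1 CPM (log2 fold change 2.99, SE 0.49, adjusted p = 0.000577). Gpc3, glypican-3, had 3 counts over the 3 cont. libraries (1.27, 0.352 and 0 CPM) and 25.5, 38.8 and 32.5 CPM in Atg7-KO (adjusted p = 1.65e-05). Golm1, a Golgi membrane protein used as a serum marker of liver disease, rose from 1.91, 3.17 and 3.76 CPM to 49.2, 47.0 and 54.9 CPM (adjusted p = 2.21e-06), and Ly6d, a cell surface marker, from 3.81, 1.41 and 0.269 CPM to 201, 238 and 247 CPM (log2 fold change 7.71, SE 0.59, adjusted p = 2.95e-06, and 8.59 without cont. 1 and 6.57 without cont. 3). Sox9, Epcam and Cd24a of this list are also duct markers, and the 9 duct markers tested were higher in 9 cases (9 with total counts; 3 of 3 under the stricter filter), with a summed level of 76.8 to 131 CPM in cont. and 880 to 1301 CPM in Atg7-KO; their part in the result was not tested. Among keratins, tubulins and actins 10 of 19 tested were higher and 2 lower (16 and 1 with total counts; 8 and 2 of 13 under the stricter filter), with Vim, vimentin, up from 22.9, 22.9 and 19.5 CPM to 123, 101 and 124 CPM (log2 fold change 2.42, SE 0.24, adjusted p = 2.06e-05). Annexins and S100 proteins, which bind calcium and membranes, had 8 of 15 tested higher and 2 lower (11 and 1 with total counts; 6 and 2 of 12 under the stricter filter). S100a11 rose from 9.54, 12.7 and 7.88 CPM to 148, 184 and 189 CPM (log2 fold change 4.14, SE 0.27, adjusted p = 1.23e-06), and Anxa5 from 57.2, 30.3 and 48.1 CPM to 252, 234 and 243 CPM (adjusted p = 2.41e-05).

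Interferon-stimulated genes, which a cell turns on when nucleic acid sensors or interferon receptors signal through IRF and STAT factors, were mostly called higher. Of 23 genes, 19 were higher and 0 lower (median 2.16; 21 higher with total counts; 12 of 16 under the stricter filter). Rsad2, viperin, an antiviral enzyme (chromosome 12, 26442746 to 26456452), rose from 68.7, 50.4 and 23 CPM to 3208, 3912 and 3279 CPM (log2 fold change 6.22, SE 0.53, adjusted p = 5.78e-06). This placed it among the 10 genes with the largest gain in CPM. Ifit1, which binds foreign RNA ends, rose from 82.6, 87.0 and 28.8 CPM to 1018, 1242 and 1101 CPM (log2 fold change 4.10, SE 0.49, adjusted p = 6.64e-05). Cxcl10, the interferon-induced chemokine that draws T cells, rose from 1.91, 2.82 and 3.94 CPM to 106, 101 and 90.1 CPM (log2 fold change 4.91, SE 0.31, adjusted p = 1.02e-06). In all 3 the cont. libraries differed more from each other, in proportion, than the Atg7-KO libraries did. Isg15, a ubiquitin-like modifier, rose 8.21-fold (adjusted p = 1.45e-05), Ifit3 4.48-fold (adjusted p = 0.000649) and Irf7, the factor that amplifies the response, 5.54-fold (adjusted p = 3.84e-05). The 4 members not called were Irf1, Stat2, Bst2 and Mx2.

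The promoters of these genes were searched for the core of the interferon-stimulated response element, 2 copies of GAAA with 2 bases between them, on both strands in the same 250 bases. Of 18 genes with a RefSeq window, 10 held it (55.6%), among them 8 of 15 called higher (53.3%) and 2 of 3 not called, against 3.34% of tested genes with a window and 3.46% of all genes in the promoter table. Windows of 5 genes whose values are given above are shown. Capitals mark the core on the gene's own strand, where copies of TTTC are the same core read from the other strand.
Rsad2 (chr12:26456538-26456597, minus strand): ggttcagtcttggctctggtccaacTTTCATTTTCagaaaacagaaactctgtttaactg
Ifit1 (chr19:34640779-34640838, plus strand): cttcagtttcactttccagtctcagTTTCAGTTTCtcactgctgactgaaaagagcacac
Ifit3 (chr19:34583382-34583441, plus strand): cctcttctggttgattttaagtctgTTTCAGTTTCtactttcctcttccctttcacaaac
Isg15 (chr4:156200856-156200915, minus strand): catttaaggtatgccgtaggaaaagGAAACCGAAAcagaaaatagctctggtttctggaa
Cxcl10 (chr5:92349068-92349127, minus strand): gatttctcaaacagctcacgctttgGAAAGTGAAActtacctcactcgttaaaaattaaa
The cores lie 120 bases before the start in Rsad2, 85 in Ifit1, 122 in Ifit3, 72 in Isg15 and 213 in Cxcl10. Ifit1 and Ifit3 each hold a second, separate match, and the 3 matches of Isg15 overlap one another. The letters describe the window and do not show that a factor bound there in these livers.

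Antigen presentation had 15 of 18 genes higher and 0 lower (median 1.33; 17 higher with total counts; 12 of 15 under the stricter filter). The class II genes H2-Aa and H2-Ab1, which antigen-presenting cells carry, rose from 8.26, 23.9 and 22.4 CPM to 88.9, 93.0 and 154 CPM (log2 fold change 2.55, SE 0.35, adjusted p = 0.00016) and from 8.90, 15.5 and 20.2 CPM to 65.2, 48.5 and 65.9 CPM (log2 fold change 1.92, SE 0.31, adjusted p = 0.000475). Psmb8, a catalytic subunit of the immunoproteasome, rose from 28.6, 52.1 and 42.2 CPM to 88.4, 93.3 and 123 CPM (log2 fold change 1.29, SE 0.24, adjusted p = 0.00115). The classical class I gene H2-K1 lay higher in every Atg7-KO library, at 2340, 2630 and 2522 CPM against 2075, 2038 and 1516 CPM, without passing the test (adjusted p = 0.225). Chemokines were higher in 10 of 11 tested cases and lower in 1 (10 and 1 with total counts; 4 and 1 of 5 under the stricter filter). Ccl2, which recruits monocytes, rose from 0, 1.06 and 0.179 CPM to 19.7, 18.3 and 17.8 CPM (log2 fold change 5.62, SE 0.57, adjusted p = 2.19e-05, and 6.57 without cont. 2 and 4.67 without cont. 3), and Ccl5 from 1.91, 1.76 and 1.34 CPM to 23, 25.5 and 43.9 CPM (adjusted p = 3.38e-05). Cxcl12, which holds cells in place, was the one that fell (log2 fold change -1.31, SE 0.25, adjusted p = 0.00141).

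Markers of immune cells moved with these groups, and their part in the result was not tested. Cx3cr1 and Itgax, of monocyte-derived cells, rose from 3.81, 3.52 and 0.985 CPM to 91.4, 51.3 and 70.9 CPM (log2 fold change 5.09, SE 0.47, adjusted p = 1.02e-05, and 4.27 without cont. 3) and from 0.636, 1.76 and 0.538 CPM to 16.7, 11.1 and 18.3 CPM (adjusted p = 2.72e-05). Trem2, of lipid-associated macrophages, rose from 0.636, 1.41 and 0.448 CPM to 14.4, 15.1 and 17.4 CPM (log2 fold change 4.42, SE 0.41, adjusted p = 1.05e-05, and 3.71 without cont. 3). Kupffer cell markers divided, with 3 of 10 higher and 2 lower and a median of -0.20 that ranges from -0.37 without cont. 1 to -0.0015 without cont. 2 and turns positive with total counts (3 higher and 2 lower). Their summed level was 220 to 377 CPM in cont. and 316 to 421 CPM in Atg7-KO. Cd163, the haemoglobin scavenger of resident macrophages, fell from 13.3, 16.9 and 16 CPM to 0.696, 1.79 and 1.37 CPM (log2 fold change -3.64, SE 0.56, adjusted p = 0.000359), and Timd4 from 6.99, 7.39 and 8.69 CPM to 0.696, 3.59 and 2.29 CPM (adjusted p = 0.00814, lost with 1 library of each sex per compared group at 0.0698). C1qb, a complement subunit of macrophages, rose 3.94-fold (adjusted p = 4.55e-05). Clec4f, specific to Kupffer cells, had 125, 179 and 124 CPM against 87.7, 164 and 131 CPM (log2 fold change -0.16, adjusted p = 0.671; the sign turns with total counts).

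Lymphoid and granulocyte transcripts were scarce. T cell markers summed to 6.81 to 16.2 CPM in cont. and 28.7 to 39.9 CPM in Atg7-KO, with both tested members higher of 9 listed (both with total counts), among them Cd8a (adjusted p = 0.00099). Only 1 of 6 B cell markers in the table was tested and it was not called, though higher with total counts (12.1, 16.9 and 8.42 CPM summed against 12.3, 18.3 and 19.7 CPM). None of 7 NK cell markers passed the filter. Neutrophil markers summed to 8.06 to 10.9 CPM in cont. and 19.3 to 29.3 CPM in Atg7-KO, with 1 of 7 tested, and that 1 was higher (also with total counts). No marker of these cells passes the stricter filter, and members tested through Atg7-KO alone had to differ.

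**Figure D5:**
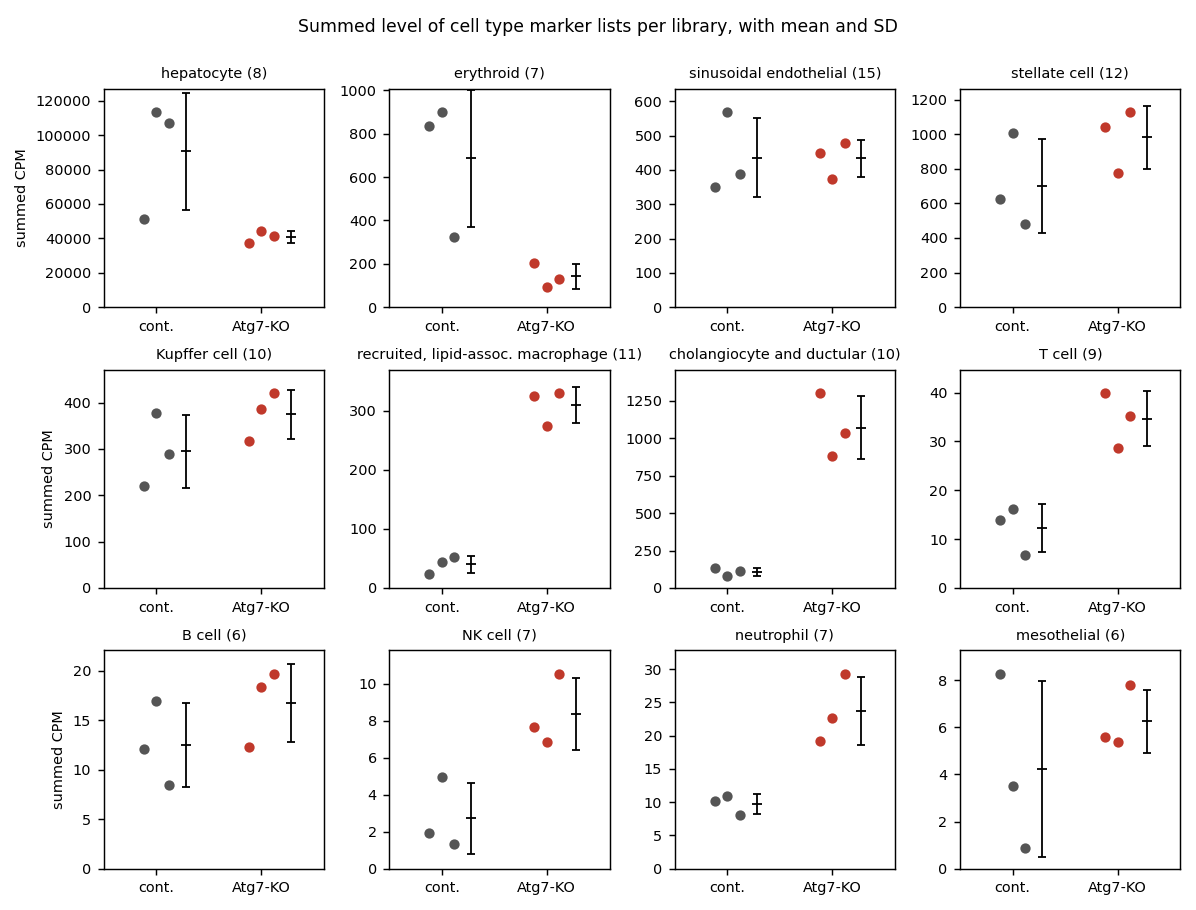
Summed CPM (linear axis) of 12 lists of cell type markers in each cont. (grey) and Atg7-KO (red) library, with mean and SD (n = 3) beside the points and the number of genes in the table beside each name. Duct, recruited macrophage, T cell, NK cell and neutrophil markers are higher in all 3 Atg7-KO libraries, hepatocyte and erythroid markers are lower, and endothelial, stellate, Kupffer, B cell and mesothelial markers overlap between groups.

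The fibrous matrix and its remodelling enzymes had 20 of 24 tested genes higher and 1 lower (median 1.84; 23 and 0 with total counts; 9 and 1 of 11 under the stricter filter). Col1a1, the main fibrillar collagen chain (chromosome 11, 94936224 to 94953042), rose from 10.2, 5.63 and 1.34 CPM to 97.4, 84.7 and 97.0 CPM (log2 fold change 4.45, SE 0.51, adjusted p = 4.98e-05, and 5.07 without cont. 1 and 3.62 without cont. 3), and Col3a1 from 32.4, 28.9 and 22.1 CPM to 349, 302 and 385 CPM (log2 fold change 3.65, SE 0.25, adjusted p = 1.69e-06). Mmp13, a collagenase, was at 0 in all 3 cont. libraries and at 6.03, 6.46 and 7.78 CPM in Atg7-KO, at least 6.27-fold higher against 3 counts per library. Acta2, the actin of activated stellate cells, had 11.4, 1.41 and 1.52 CPM against 9.98, 10.4 and 11.9 CPM and did not pass (adjusted p = 0.0959). Col18a1, a basement membrane collagen that hepatocytes make, fell from 802, 1208 and 1166 CPM to 455, 516 and 491 CPM (adjusted p = 0.00324), a call lost with total counts (adjusted p = 0.0607). Stellate cell markers gave 3 of 10 tested higher and 2 lower, with summed levels of 479 to 1005 CPM in cont. and 778 to 1127 CPM in Atg7-KO, which overlap (6 higher and 2 lower with total counts; 5 and 2 without cont. 2). Pdgfrb, the receptor through which stellate cells are driven to divide, rose from 10.8, 8.80 and 8.33 CPM to 35.5, 25.8 and 26.1 CPM (adjusted p = 0.00136), whereas Colec10, a collectin of resting stellate cells, fell from 20.3, 29.6 and 26.1 CPM to 0.696, 3.23 and 0.915 CPM (log2 fold change -4.01, SE 0.43, adjusted p = 3.04e-05, and -4.98 without Atg7-KO 2). The part of cell number in the matrix result was not tested.

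Sinusoidal endothelium and red cell precursors gave the remaining marker lists. Of 14 tested endothelial markers, 6 were lower and 1 higher (2 and 3 with total counts; 2 higher without cont. 2), and 3 were lower without Atg7-KO 1 or Atg7-KO 2. Their summed level was 350.9 to 568 CPM in cont. and 374 to 477 CPM in Atg7-KO. Oit3 fell from 12.7, 19 and 15.9 CPM to 5.80, 4.31 and 4.58 CPM (adjusted p = 0.00143), and Lyve1, a hyaluronan receptor that lymphatic vessels and some macrophages also carry, rose from 15.9, 22.2 and 12.6 CPM to 54.3, 64.2 and 85.6 CPM (log2 fold change 2.03, SE 0.27, adjusted p = 0.000131). Erythroid markers summed to 322 to 899 CPM in cont. and 93.3 to 204 CPM in Atg7-KO. Alas2, the heme synthesis enzyme of red cell precursors, fell from 191, 44.7 and 111 CPM to 13.5, 8.61 and 13.3 CPM (log2 fold change -3.27, SE 0.44, adjusted p = 0.00015).

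Several of the largest increases belonged to no list. Elovl7, a fatty acid elongase, rose from 1.27, 0.352 and 0.358 CPM to 140, 217 and 179 CPM (log2 fold change 8.46, SE 0.45, adjusted p = 4.2e-07), and Slc1a1, a glutamate and cysteine carrier, from 1.27, 0.704 and 0.269 CPM to 139, 204 and 156 CPM (log2 fold change 8.31, SE 0.45, adjusted p = 4.77e-07, and 7.41 without cont. 3). Slc1a1 thus rose where the related carrier Slc1a2 fell. Lrtm2 was at 0 in the 3 cont. libraries and at 18.3, 20.1 and 23.3 CPM in Atg7-KO, at least 19.1-fold higher. Sprr1a, a cornified envelope protein, had 1 count in all of cont. and 29.5, 39.8 and 52.6 CPM in Atg7-KO, and Gipc2, a PDZ adaptor, had 3 counts and 71.5, 97.3 and 82.8 CPM. In all, 12 genes called higher had no count in any cont. library, and 0 genes called lower had no count in any Atg7-KO library.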

How the data were processed

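Poly(A) RNA of whole liver was sequenced single-end on a NextSeq 500. The submitters' processing notes name Trim Galore, STAR, RSEM and mm10, and the authors mapped reads with STAR and quantified genes by RSEM; versions, annotation and strand setting are not given in the sources used here. The deposited table holds RSEM expected counts for 24411 genes, not normalized, in 9 libraries. They were rounded to whole counts here.

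Genes were filtered with filterByExpr (minimum count 10, minimum total 15), scaled by TMM and fitted over all 9 libraries with edgeR 4.0.16 in R 4.3.3 (quasi-likelihood F test, prior count 2, Benjamini-Hochberg adjustment over 11199 genes). Every adjusted p in the text is from this fit unless another setting is named. CPM values were computed here on the TMM scale and carry no length correction, so levels are compared within a gene only. A gene at 0 in a whole group is given as at least N-fold against 3 counts per library, and with 1 to 3 counts no fold is given. Such floors cover counting error only.

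The members and gene lists were chosen with earlier results of these data known. Genes named were drawn from those given by a rule: per direction, the 10 called genes with the largest fold change, if their higher group averaged 10 CPM or more, and the 10 with the largest CPM difference, in both cases without overlap between groups; and from each list its first 2 genes and up to 4 called genes per direction. The rule gave 367 genes, of which 143 are named, and the other 224, some of the largest fold changes among them, are not described. Chosen after their values were seen were A1bg, Acadm, Acta2, Aldoa, Asns, Bst2, C9, Cbs, Cd24a, Cd68, Cd8a, Cox7c, Cpt2, Ctsb, Cyp2c29, Cyp3a11, Cyp3a41a, Golm1, Gpnmb, Gsdmd, Gstz1, H2-Ab1, Hsp90b1, Ifit3, Irf1, Irf7, Lgr5, Mmp13, Mthfd1l, Mx2, Psmb8, Rps2, Sdha, Selenbp2, Serpinc1, Slc10a1, Socs2, Stat2, Trib3 and Uqcrq.

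Alternatives were RLE, total-count and top-20-free scaling, no filter or at least 10 counts in each compared library, DESeq2 1.42.0, limma-voom 3.58.1, the 6 compared libraries alone, thinned libraries, a replicate block, sex as a covariate, other thresholds and leaving out each library. A fit on 4 libraries, 1 of each sex per compared group, was added after seeing the data. Promoter windows came from RefSeq (GRCm38.p6, the assembly called mm10). Most list members enter the counts only, and some members and lists are not reported here.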

Additional observations from a re-analysis of the deposited data

How the results depend on the processing

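The main counts of 2226 higher and 2027 lower genes moved most with scaling: total library size gave 4312 and 796, and library size without the 20 most abundant genes 3777 and 976. At least 10 counts in each compared library left 1350 higher and 1514 lower genes of 8896 tested, so that lower calls outnumber higher ones there. A fold above 2 left 1776 and 1301, and an adjusted p under 0.01 left 1573 and 1224. Leaving out 1 library gave 1786 to 2372 higher and 1452 to 2165 lower genes. DESeq2 called 2216 and 1891, limma-voom 2467 and 2034, sex as a covariate 2226 and 1986, and the 4-library fit chosen after seeing the data 1607 and 1368. No gene among the 4253 calls was called in the opposite direction under any of these settings. With the replicate number as a block, 2297 genes were higher and 2016 lower, and 4110 of the calls were kept. Same-numbered libraries correlated at 0.248, 0.091 and -0.041 in their deviations, and differently numbered ones at -0.265 to 0.212. Whether same-numbered samples share more than a number cannot be read from these values.

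Of 160 genes named in the text and called, 144 were called in every setting that tested them. The calls for Acadm, Alb, Atg7, Bnip3, Col18a1, Cox7c, Cyp2d9, Optn and Ppara are lost with total library size, and those for Alb, Atg7, Optn and Ppara also without the 20 most abundant genes, with their direction kept. Further calls lost were Alb (adjusted p = 0.0539) and Cdkn1a (adjusted p = 0.0522) in the 6 compared libraries alone, Alb in thinned libraries (adjusted p = 0.0614), Cdkn1a with DESeq2 (adjusted p = 0.0748), Elovl3 (adjusted p = 0.0639) and Cyp2d9 (adjusted p = 0.116) with limma-voom, and Cyp2d9 with sex as a covariate (adjusted p = 0.107). In the 4-library fit the calls for Alb, Cdkn1a, Cyp2d9, Gdf15, Stbd1 and Timd4 are lost (adjusted p = 0.0554 to 0.196), and DESeq2 gave no adjusted p for Cyp2a4 and Cyp2b13. Depth limits genes under about 1.91 CPM, the level of 3 counts in the shallowest control library.

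The log2 fold change changed sign in the following cases, and the cause was not tested. With total library size it was 0.13 for Cyp7a1, 0.34 for Trib3, 0.12 for Irf1 and 0.36 for Clec4f. With library size without the 20 most abundant genes it was 0.027 for Cyp7a1, 0.23 for Trib3 and 0.26 for Clec4f. With limma-voom it was 0.35 for Cyp2b13. Leaving out 1 library it ranged from -0.065 to 0.37 for Cyp1a2, -9.11 to 3.19 for Cyp2b13, -6.74 to 4.92 for Cyp3a41a, -0.51 to 0.32 for Trib3, -0.018 to 0.21 for Stat2, -0.17 to 0.61 for Bst2 and -0.39 to 0.051 for Clec4f.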
